A study of Mus musculus with 28 samples.

Results

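MERVL elements are mouse endogenous retroviruses whose internal part, annotated as MERVL-int, lies in intact copies between a pair of MT2_Mm long terminal repeats (LTRs). Integrants were taken as members when the joined repeat name held MERVL-int or MERVL itself, whatever LTR they kept. This gave 1541 of the 3404964 LINE, SINE, LTR and DNA integrants of the mm9 repeat track, and 1072 of these reached 16 reads summed over 16 RNA-seq libraries, among 123880 such integrants in all. An MT2_Mm part was present in 859 members, of which 815 reached 16 reads, and absent from 682, of which 257 did. Of the other 469 members, 253 had no read and 216 had 1 to 15. The 37 members just inside that limit, with 16 to 20 reads, had a median log2 change of 2.49 after knockdown in WT cells, and 5 of them were called up there. Reads of the knockdown libraries count towards the limit, so this median is a description. The 27 members just outside it, with 11 to 15 reads, had a median of 13 reads and no fitted value.

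Naive mouse embryonic stem cells (ESCs) of 3 genotypes were compared: WT, DNMT TKO, which lack Dnmt1, Dnmt3a and Dnmt3b and so the enzymes that methylate DNA, and TET TKO, which lack Tet1, Tet2 and Tet3, the enzymes that oxidise 5-methylcytosine. All were labelled as J1 cells of strain 129S4/SvJae, although the study's methods name other sources for the knockout lines, were grown without feeders in N2B27 2i plus LIF medium, and received a lentivector coding for shEmpty, a hairpin with no target, or for shKap1, a hairpin against Kap1 (Trim28), were selected with puromycin and were collected 5 days after transduction. WT and DNMT TKO had 3 libraries per hairpin, and TET TKO had 2. Each genotype was 1 line and the knockout lines came from different laboratories, so genotype and line cannot be told apart.

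MERVL is transcribed for a short time when the genome of the 2-cell embryo is activated, and in ESC culture a rare fraction of cells passes through a similar state. The MT2_Mm LTR is the promoter, and the transcription factor DUX is known to bind it and to switch it on. The internal part codes for Gag and Pol but for no envelope protein, and the element is primed from a tRNA that pairs just after the first LTR. KAP1 is the cofactor through which KRAB zinc finger proteins silence many endogenous retroviruses.

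The integrant with the most reads, chr13:65778368-65784792 on the plus strand (mm9), starts with an intact LTR. Its first 300 bases, chr13:65778368-65778667, hold the promoter part; the 9 capitals, at positions 158 to 166 from the start of the element, mark a match to GATTNAATC, letters searched after the LTR had been read, because they form the core of the longer motif TGATTNAATCA known for DUX. The second run, chr13:65778831-65778910, crosses from the LTR into the internal part, and its 18 capitals, from position 499, mark the site expected to pair with the primer, a leucine tRNA.
5' LTR of the most-read integrant: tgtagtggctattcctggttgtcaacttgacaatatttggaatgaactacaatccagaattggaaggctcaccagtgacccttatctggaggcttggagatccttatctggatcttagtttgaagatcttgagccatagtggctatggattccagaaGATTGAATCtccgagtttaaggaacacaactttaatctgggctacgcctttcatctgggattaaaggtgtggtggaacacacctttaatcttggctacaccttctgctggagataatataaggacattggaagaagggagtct
LTR end and internal start: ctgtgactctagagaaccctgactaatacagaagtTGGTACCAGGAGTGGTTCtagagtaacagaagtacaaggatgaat

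Most MT2_Mm members held the core. On either strand, and over the whole integrant, it was present in 99.8% of integrants with MT2_Mm at both ends, in 81.4% of those with MT2_Mm at 1 end or inside, in 16.6% of those with the older LTR MT2C_Mm, in 0% of those annotated as internal part alone, and in 1.82% of 112445 LTR-class repeats of 400 to 600 bases, which are shorter than the integrants with MT2_Mm at both ends. Among 1396 matches in tested MT2_Mm members the middle letter gave GATTGAATC in 1370, GATTAAATC in 22 and GATTCAATC in 4. The longer TGATTNAATCA, which contains the core, was in 0.197% of the same background, in 0 members with MT2_Mm and in 1 with MT2C_Mm, which says only that those letters are not in these sequences. Intact LTRs came in 2 common forms that differ in length by 1 base just after the core, shown here as 49 bases of the most-read integrant of each form, with a MT2C_Mm integrant that holds the core.
longer form, chr13:65778509-65778557, plus strand: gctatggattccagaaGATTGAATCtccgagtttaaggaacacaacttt
shorter form, chr5:70939779-70939827, minus strand: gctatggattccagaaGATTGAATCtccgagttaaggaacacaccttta
MT2C_Mm, chr12:8623062-8623110, plus strand: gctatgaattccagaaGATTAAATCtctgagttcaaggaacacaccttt

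Of tested integrants with MT2_Mm at both ends, 278 carried the longer form and 290 the shorter. Their responses to knockdown were close, with a median log2 change of 3.44 and 3.36 in WT cells and of 5.32 and 5.32 in TET TKO cells. Median reads were 728 for the longer and 298 for the shorter form, beside medians of 568 and 316 windows of unique sequence, so that read depth moved with the sequence available for counting.

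Members fell into structural classes that differed in length, sequence and depth. The 651 integrants with MT2_Mm at both ends had a median length of 6423 bp, 12.2 CpG per kb against 8.29 for the genome, and a median longest open reading frame of 1182 codons, with 476 of 651 holding a frame of 1000 codons or more. The 2 LTRs of an integrant are copies of 1 sequence at the time of integration, and in 581 pairs that could be aligned their median identity was 99.8%, with 210 identical pairs. The 204 integrants with MT2_Mm at 1 end or inside were shorter (median 1129 bp, 11.5 CpG per kb), the 158 with MT2C_Mm had 4.90 CpG per kb over a median of 1200 bp, and the 524 annotated as internal part alone had a median length of 466 bp and a longest frame of 92 codons. A further 4 carried both LTR types.

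Because only uniquely aligned reads were counted, an integrant can be seen only where its sequence differs from the other copies. Of the windows of 100 bases that overlapped an integrant with MT2_Mm at both ends, a median of 6.36% occurred at a single place in the genome, and 3.42% of those that lay wholly inside it, against 99.4% and 99.6% for MT2C_Mm. Over 631 such integrants, reads and unique windows had a Spearman rho of 0.76, whereas the log2 change in WT cells and unique windows had one of 0.10, as a description over integrants that share the same libraries. In 115 tested members no unique window lay wholly inside, and these had a median of 93 reads. Over 254 members without MT2_Mm the rho of reads and unique windows was 0.31. Reads and CPM are therefore no measure of the RNA of 1 integrant against that of another. Counts came from the strand of the element, as shown by repeats inside exons of strongly expressed genes, which gave 4707 reads per kb in the orientation of the gene and 19.2 in the opposite one.

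**Figure D1:**
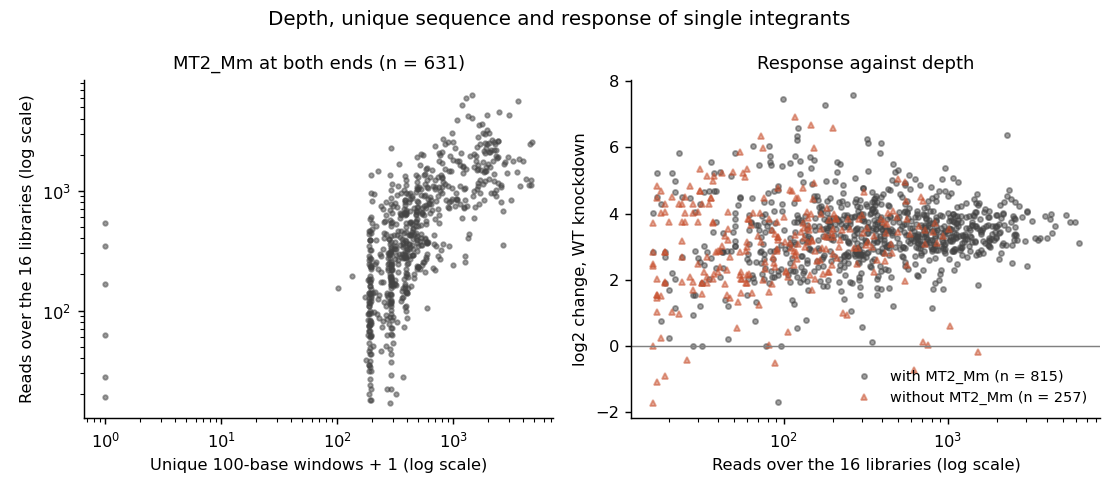
Left, reads summed over the 16 libraries against the number of unique 100-base windows plus 1, both on log scales, for 631 tested integrants with MT2_Mm at both ends (points); reads rise with unique windows (rho 0.76). Right, the log2 change after knockdown in WT cells against reads for 815 integrants with (circles) and 257 without (triangles) MT2_Mm; the cloud narrows with depth around a change between 3 and 4.

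The libraries held 18108431 to 29373696 reads in genes and 898152 to 1803819 in integrants of the 4 classes. Trim28 fell from 1752 ± 207 to 165 ± 21.9 CPM, which are reads scaled to the library's reads in genes with TMM factors, in WT (SD, n = 3, log2 change -3.41), from 1868 ± 197 to 427 ± 91.5 in DNMT TKO (n = 3, -2.13) and from 1835 ± 89.8 to 166 ± 3.84 in TET TKO (n = 2, -3.47). The knockdown was weaker in DNMT TKO than in WT by 1.28 ± 0.21 on the log2 scale (approximate standard error, edgeR's quasi-likelihood test, adjusted p = 0.000803). This has to be read beside every DNMT TKO value below. Gene-level differences of this kind were called higher in 4.66% and lower in 2.48% of 20321 genes. The ESC marker Pou5f1 was present in all libraries (549 to 841 CPM), and of 7 ESC markers 2, 1 and 0 fell after knockdown in WT, DNMT TKO and TET TKO, where 6.54%, 2.41% and 4.46% of all genes fell. Their summed level went from 5128 to 5366 CPM with shEmpty to 3058 to 3141 with shKap1 in WT, from 4835 to 5009 to 3211 to 3790 in DNMT TKO and from 5980 to 6073 to 3939 to 4029 in TET TKO, with median log2 changes of -0.87, -0.59 and -0.74. In each genotype the shEmpty and shKap1 sums did not overlap, and the part of this in the MERVL values was not tested. Markers of other cells were summed likewise, and their part in the MERVL values was not tested either. For 4 of primitive endoderm the sums with shEmpty and shKap1 were 4.28 to 8.35 and 11.2 to 12.7 CPM in WT, 4.01 to 6.44 and 7.27 to 9.22 in DNMT TKO, and 9.88 to 10.9 and 11.9 to 12.2 in TET TKO, without overlap in any genotype. For 5 of feeder fibroblasts they overlapped in WT (3.28 to 4.23 and 3.04 to 5.07) but were higher with shKap1 in DNMT TKO (5.33 to 8.29 and 10.8 to 11.6) and lower in TET TKO (6.98 to 7.25 and 4.77 to 5.23). For 4 of trophoblast they were lower with shKap1 in WT (20.3 to 25.7 and 13.8 to 15.0) and overlapped in DNMT TKO (8.06 to 15.2 and 4.23 to 10.4) and TET TKO (18.9 to 20.3 and 15.3 to 19.6), and Col3a1, Postn, Foxa2 and Elf5 were at 0 in at least 1 library.

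CPM were summed over members in each library to compare the libraries. The sums of members with and without MT2_Mm are not compared with each other, because the unique sequence available for counting differs between them. Members with MT2_Mm summed to 139, 219 and 237 CPM in the WT shEmpty libraries and to 1857, 2363 and 2344 in WT shKap1. In DNMT TKO they summed to 95.5, 270 and 292 and then to 1162, 2151 and 1511, and in TET TKO to 171 and 164 and then to 6291 and 6120. Every shKap1 library lay above every shEmpty library of its genotype, and both TET TKO shKap1 libraries lay above all others. The ratio of means was 11.04 in WT, 7.34 in DNMT TKO and 37.0 in TET TKO.

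Members without MT2_Mm summed to 23.8, 26 and 29.6 CPM in WT shEmpty and to 144, 174 and 174 in WT shKap1, to 23.4, 37.6 and 39.2 and then 112, 165 and 125 in DNMT TKO, and to 24.9 and 24.6 and then 447 and 455 in TET TKO. Again no shKap1 library overlapped a shEmpty library of its genotype. The ratios were 6.19, 4.01 and 18.2, and those of the internal parts alone were 4.97, 3.38 and 13.0. In TET TKO shKap1 cells MT2_Mm members made up 7.43% to 7.54% of all integrant reads, against 0.305% to 0.357% with shEmpty. In bulk libraries more cells that express an element and more RNA per cell cannot be told apart.

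**Figure D2:**
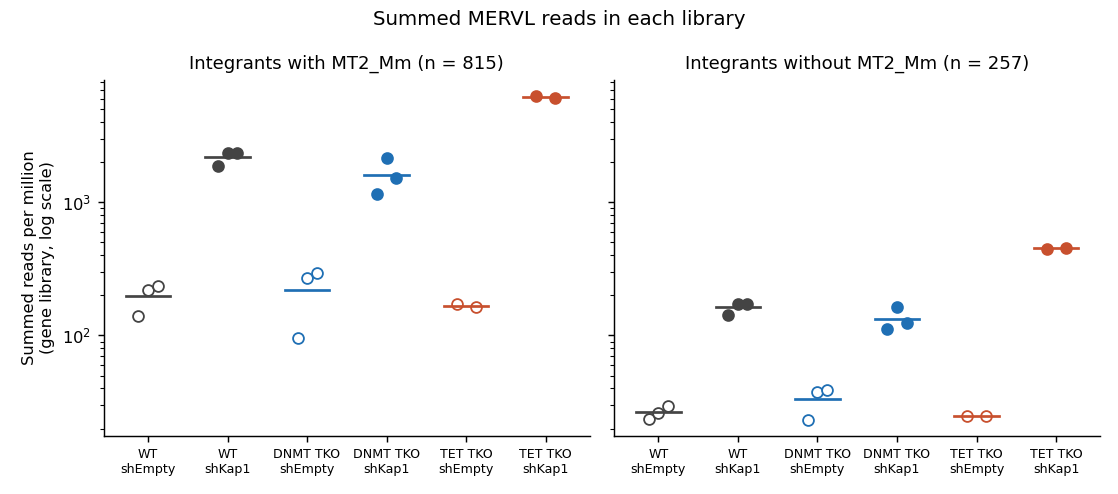
Summed CPM (log scale) of 815 tested members with MT2_Mm (left) and 257 without (right) in each library (points: open, shEmpty; filled, shKap1) with group means (lines). In both panels the TET TKO shKap1 libraries are the highest, at 6120 to 6291 and at 447 to 455.

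Libraries of 1 group were not alike without knockdown. The first shEmpty replicate was the lowest in WT and in DNMT TKO, with reads in 62.5% and 58.4% of the 1072 members against 77.7% to 80.2% in the other 4 shEmpty libraries of those genotypes. Without the first DNMT TKO shEmpty library, 766 members were called up in DNMT TKO and the log2 change of the MT2_Mm sum was 2.48 in place of 2.88. Without the first WT shEmpty library, 865 members were called up in WT and the log2 change of the MT2_Mm sum was 3.26 in place of 3.46.

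Single integrants were then tested with edgeR over all 123880 integrants, with a call at an adjusted p under 0.05 and a change of at least 2-fold. In WT cells 911 of 1072 members rose and none fell, where 12.1% of all integrants rose and 2.05% fell. Members with MT2_Mm rose in 737 of 815 cases (median log2 change 3.41) and those without in 174 of 257 (3.15), beside a median of 0.23 over all integrants. In DNMT TKO cells 834 rose, 670 with and 164 without MT2_Mm (medians 2.76 and 2.61), and 1 fell, beside 15.0% and 0.944% of all integrants and a median of 0.27. In TET TKO cells 1010 rose, 789 with and 221 without MT2_Mm (medians 5.30 and 5.05), and none fell, beside 14.7% and 0.971% and a median of 0.34. With 777 members called up in all 3 genotypes and 1033 in at least 1, 39 were called up in none. These counts cover tested members alone, and 44 members with and 425 without MT2_Mm were not tested. The limit of 16 reads sums over all libraries, so a member could pass it through its shKap1 reads: those with 16 to 49 reads had a median of 0.0134 CPM in WT shEmpty, 0.115 in WT shKap1 and 0.292 in TET TKO shKap1. With a limit of 1 read, 146, 124 and 209 of 440 members without MT2_Mm rose in WT, DNMT TKO and TET TKO.

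The share of calls without MT2_Mm was lower at about the same size of change, and it moved with total reads. Most of these reads came from shKap1 libraries, so that a member's rise helped to set its class of reads, and the counts by class are a description. Among members with 200 reads or more, 542 of 560 with MT2_Mm and 56 of 63 without rose in WT, with medians of 3.45 and 3.41. From 50 to under 200 reads the counts were 170 of 194 and 90 of 108 (3.33 and 3.13), and at 16 to 49 reads 25 of 61 and 28 of 86 (2.84 and 2.85). Of the classes without MT2_Mm, MT2C_Mm integrants had a median of 3.42 (66 of 79 called up) and internal parts alone 3.00 (108 of 178). Integrants with MT2_Mm at both ends had a median of 3.40 (587 of 637), and those with MT2_Mm at 1 end or inside 3.50 (147 of 174). In TET TKO these 4 classes had medians of 5.24, 4.82, 5.32 and 5.22, and in DNMT TKO of 2.64, 2.55, 2.76 and 2.76. Members without MT2_Mm can lie just downstream of a separately annotated one: 17 had an MT2_Mm row on their strand within 10 kb upstream, and 14 of these rose in WT (median 3.53) against 160 of the other 240 (3.13), with median reads of 201 and 85.5.

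**Figure D3:**
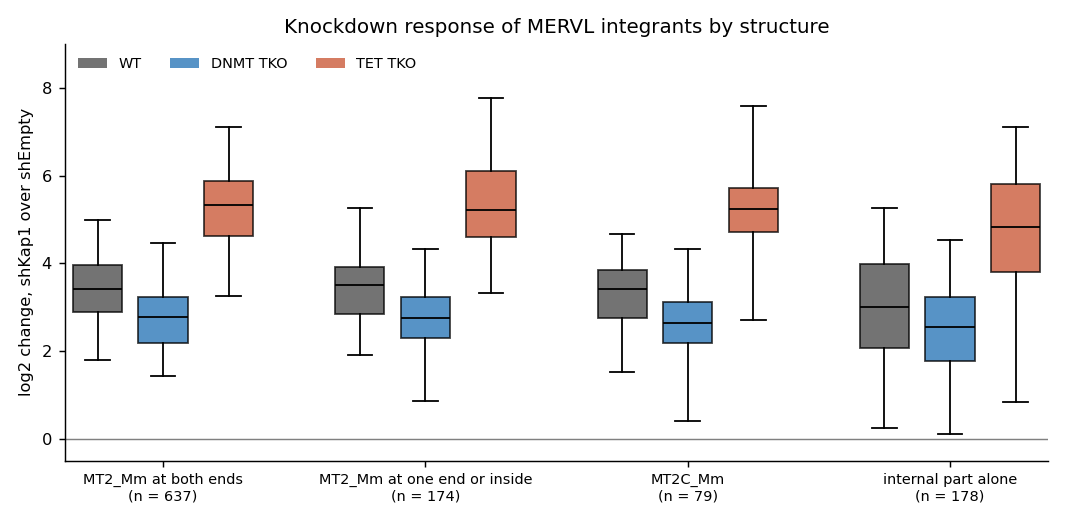
Log2 change of single integrants after knockdown in WT, DNMT TKO and TET TKO cells for 637 integrants with MT2_Mm at both ends, 174 with it at 1 end or inside, 79 with MT2C_Mm and 178 internal parts alone (boxes, quartiles with the median; whiskers, 5th to 95th percentile). Within each class the median is lowest in DNMT TKO and highest in TET TKO, and internal parts alone have the widest spread.

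Members were also split by length. For members with MT2_Mm the median log2 change in WT was 3.29 under 1000 bp (71 integrants), 3.27 from 1000 to under 3000 bp (70), 3.28 from 3000 to under 5000 bp (52) and 3.45 from 5000 bp (622), and for members without it 2.92 (123), 3.35 (89), 3.12 (33) and 3.56 (12). The same classes had medians of 5.22, 5.23, 5.15 and 5.33 with and 4.60, 5.15, 5.39 and 4.97 without MT2_Mm in TET TKO. The share called up in WT was 69.0%, 92.9%, 94.2% and 92.3% with and 60.2%, 71.9%, 78.8% and 83.3% without MT2_Mm, beside median reads of 74, 236.5, 640 and 434 with it and 60, 107, 153 and 358 without. By distance, the medians of members with MT2_Mm were lowest inside genes in WT and TET TKO. With MT2_Mm the median was 3.18 inside a gene body (262), 3.40 under 10 kb from a gene (162), 3.59 from 10 to 100 kb (271) and 3.57 beyond 100 kb (107), in TET TKO cells 5.01, 5.21, 5.47 and 5.48, and in DNMT TKO cells 2.73, 2.71, 2.82 and 2.78. Without MT2_Mm the WT medians were 2.70, 3.23, 3.15 and 3.84 over 79, 60, 81 and 34 members. Over the 637 integrants with MT2_Mm at both ends, distance to the nearest gene and log2 change had a Spearman rho of 0.19 in WT, 0.24 in TET TKO and 0.06 in DNMT TKO. LTR identity (570 pairs) had one of -0.02 in WT.

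Inside genes, members were split by their orientation, first those that lacked MT2_Mm. In the orientation of the host gene 21 of 37 rose in WT and 24 of 37 in TET TKO (medians 2.60 and 4.04), and in the opposite orientation 26 of 37 and 34 of 37 (2.97 and 5.35). With MT2_Mm the medians were 3.22 for the same orientation (116) and 3.05 for the opposite one (127) in WT, and 4.88 and 5.04 in TET TKO. Reads of a host transcript in the same orientation are counted on the element as well, and their part in these values was not tested.

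A missing call does not show a missing response. Of the 39 members called up in no genotype, 24 lacked MT2_Mm, 19 had under 50 reads (147 of all 1072 did) and 15 lay inside a gene in its orientation (153 of 1072). Among them 10 had 200 reads or more, and these were singled out after their values were seen. The most read of them, chr7:150821579-150822344, is an internal part of 766 bp that overlaps an exon of Tnfrsf22, a decoy receptor for the death ligand TRAIL, in the same orientation. It stood at 4.28 ± 0.67 CPM with shEmpty and 3.77 ± 0.37 with shKap1 in WT (SD, n = 3, log2 change -0.19 ± 0.20, adjusted p = 0.668), and its log2 change was -0.27 in DNMT TKO and 0.16 in TET TKO. Park7, Mtap1s and Nf2 hold 3 more in their orientation, with WT log2 changes of 0.04, 0.11 and 0.12. Others varied between libraries: chr11:32962306-32968740, with MT2_Mm at both ends, ranged from 0 to 0.0708 CPM in WT shEmpty and from 0.0533 to 0.996 in WT shKap1 (log2 change 3.58 ± 1.95, adjusted p = 0.32). The 1 fall was chrX:49708606-49715002, inside Gpc3 in the opposite orientation with 93 reads, which changed by -2.81 ± 0.84 in DNMT TKO (adjusted p = 0.00724) but by 2.26 in WT and 2.73 in TET TKO. It was not called by limma-voom or DESeq2, nor without replicate 2 of DNMT TKO shEmpty or of DNMT TKO shKap1.

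Among single integrants, reads were spread widely: 145 members held 50% of them, and the 10 most read held 8.24%. The 5 most-read members all had MT2_Mm at both ends. The first, chr13:65778368-65784792, whose LTR is printed above, had 2.61, 3.84 and 5.10 CPM in WT shEmpty and 30.4, 41.3 and 28.6 in WT shKap1 (log2 change 3.10 ± 0.45, adjusted p = 0.000582). In DNMT TKO it had 2.29, 7.70 and 6.71 and then 21.5, 46.3 and 29.2 (2.52 ± 0.44), and in TET TKO 0.916 and 0.789 and then 31.2 and 27.7 (5.10 ± 0.63). Its shKap1 levels in the 3 genotypes overlapped, while both TET TKO shEmpty libraries lay below all other shEmpty ones. The difference of TET TKO from WT without knockdown did not pass edgeR's test (log2 difference -2.18, adjusted p = 0.0768). Nor did that of the response (2.00, adjusted p = 0.424).

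A different order of the libraries was seen at others of the 5. At chr16:3468160-3474571, CPM were 1.17, 1.89 and 1.63 in WT shEmpty against 19.4, 22.0 and 22.1 in shKap1, 0.711, 1.52 and 2.58 against 9.85, 18.9 and 14.1 in DNMT TKO, and 1.41 and 1.69 against 73.2 and 70.7 in TET TKO. The shEmpty groups overlapped, and the TET TKO shKap1 libraries stood above all others. The log2 change was 3.74 ± 0.19 in WT and 5.53 in TET TKO, a difference of 1.80 ± 0.28 (adjusted p = 4.39e-07). For chr3:31550036-31556502, WT went from 1.17, 1.39 and 1.56 to 15.99, 16.9 and 18.4 CPM, DNMT TKO from 0.914, 2.17 and 3.51 to 13.4, 27.1 and 17.6, and TET TKO from 0.670 and 0.751 to 48.1 and 40.5. Here the TET TKO libraries were the lowest without and the highest with knockdown, and the TET TKO response exceeded that of WT by 2.33 ± 0.33 (adjusted p = 4.33e-08). The last of the 5, chr5:63163815-63167092, 6378 bp from Arap2, had log2 changes of 3.75, 2.90 and 5.25 in WT, DNMT TKO and TET TKO.

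Another of the 5 lies 3798 bp from Zscan4d, a gene of the 2-cell state. At chr7:11755295-11761733 the values were 1.28, 1.74 and 2.19 CPM in WT shEmpty and 27.8, 32.1 and 22.9 in shKap1, 0.355, 2.11 and 1.73 and then 10.4, 12.4 and 8.42 in DNMT TKO, and 0.846 and 0.976 and then 62.5 and 58.9 in TET TKO. The 3 shKap1 groups did not overlap, with DNMT TKO lowest and TET TKO highest. The log2 changes were 3.97, 2.84 and 6.05, and TET TKO differed from WT by 2.08 ± 0.48 (adjusted p = 0.0299). Zscan4d itself went from 8.41 ± 2.69 to 91.3 ± 2.86 CPM in WT (n = 3), from 6.12 ± 2.82 to 31.4 ± 11.1 in DNMT TKO (n = 3) and from 3.68 ± 0.48 to 269 ± 3.17 in TET TKO (n = 2), in the same order. Genes of the Zscan4 family are nearly identical, so the split of reads between them is uncertain.

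Members with large fitted changes were described next. Where a group had 0 reads the fitted value depends on the prior count of the fit, so these members are not ranked among each other. In WT 1 of them was chr16:14748808-14755244, with MT2_Mm, 39320 bp from Snai2. It had 0 reads in all 3 WT shEmpty libraries and 0.839, 1.04 and 1.17 CPM in WT shKap1, at least 25.2-fold higher against a floor of 3 counts over the group. DNMT TKO had 0.102, 0.069 and 0.424 and then 0.720, 1.03 and 0.742 (log2 change 2.02), and TET TKO 0 and 0.113 and then 3.24 and 2.87 (5.67). All DNMT TKO shEmpty libraries lay above the WT ones. The differences of DNMT TKO from WT, -5.57 for the response and 5.27 without knockdown, rest on the empty WT group, and neither was called without replicate 3 of DNMT TKO shEmpty (adjusted p = 0.16 and 0.0716).

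Another, chr6:85820939-85827385, ends 1787 bp upstream of Cml2, which codes for an N-acetyltransferase-like protein, on the same strand. Its CPM were 0.0555, 0.285 and 0.212 in WT shEmpty and 10.4, 20.1 and 20.5 in shKap1, 0, 0.069 and 0.347 and then 5.14, 5.22 and 5.19 in DNMT TKO, and 0.176 and 0.150 and then 20.6 and 20.7 in TET TKO. The TET TKO shKap1 libraries lay just above the WT ones here, and the DNMT TKO ones below both. The log2 changes were 6.38 ± 0.27 (adjusted p = 2.46e-110), 5.09 and 6.94, and the DNMT TKO response did not pass the test of its difference from WT (-1.29, adjusted p = 0.416). The MT2_Mm member chrX:17879681-17886115 has no unique window of its own inside, and went from 0, 0.0356 and 0.0354 to 1.57, 2.64 and 3.09 CPM in WT. With 0 reads in DNMT TKO shEmpty and 0.768, 1.505 and 0.185 CPM in shKap1 it was at least 19.1-fold higher there.

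Members without MT2_Mm with large fitted changes were fragments. An internal part of 685 bp, chr1:157390500-157391184, which overlaps a KAP1 region, had 0 reads in the 3 WT shEmpty libraries and 0.419, 0.649 and 0.426 CPM in shKap1, at least 12.6-fold higher. The internal part chr5:70950916-70952561, with an MT2_Mm row 553 bp upstream, went from 0.111, 0.0356 and 0.0708 to 1.99, 2.51 and 2.67 CPM in WT (log2 change 5.04) and changed by 7.18 in TET TKO. At chr2:89725271-89726297 WT went from 0, 0.107 and 0.0708 to 1.73, 2.34 and 2.56 CPM and DNMT TKO from 0.254, 0.242 and 0.386 to 1.06, 2.59 and 1.71. The shKap1 levels of both genotypes overlapped while the DNMT TKO shEmpty levels were the higher, and the DNMT TKO response was lower than that of WT by a log2 difference of -2.37 ± 0.63 (adjusted p = 0.0142). A large rise among these in TET TKO was that of chr3:106389815-106392100, with MT2C_Mm, the core and an MT2_Mm row 534 bp upstream, at 0 and 0.0376 and then 5.70 and 7.13 CPM. Its log2 change exceeded that in WT (3.07) by 5.02 ± 0.93 (adjusted p = 7.06e-05).

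In DNMT TKO, MT2_Mm members with large fitted changes were largely empty without knockdown. One, chrX:17870454-17876888, lies 13392 bp from Kdm6a, which codes for a demethylase of H3K27me3, and has no unique window inside. It had 0, 0.0345 and 0 CPM in DNMT TKO shEmpty and 3.31, 0.705 and 0.556 in shKap1 (log2 change 6.32 ± 0.60, adjusted p = 1.6e-22). Its log2 changes in WT and TET TKO were 5.51 and 7.06. Another, chr6:11070427-11076757, went from 0, 0.0345 and 0 to 0.817, 0.611 and 1.26 CPM in DNMT TKO (5.62 ± 0.67) and changed by 3.77 in WT and 6.69 in TET TKO. Of internal parts alone, chr19:49984754-49985036, of 283 bp, went from 0.0508, 0 and 0.0771 to 1.01, 1.22 and 0.630 CPM in DNMT TKO (4.37 ± 0.56), and chr13:51160769-51161468, of 700 bp, from 0, 0.069 and 0.154 to 1.49, 1.27 and 1.60 (4.10 ± 0.46). At all 4 the DNMT TKO shKap1 libraries lay above the shEmpty ones, which was a condition for naming them. The difference of their DNMT TKO response from WT did not pass the test (adjusted p 0.599 to 1).

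In TET TKO, chr14:106342463-106348897, 46427 bp from Spry2, an inhibitor of receptor tyrosine kinase signalling, rose from 0 reads in both libraries to 4.31 and 3.85 CPM, at least 75.0-fold, where WT went from 0, 0.142 and 0.142 to 2.04, 2.12 and 0.96. Its response did not pass the test of the difference from WT (adjusted p = 0.602). At chr15:76795409-76801804, TET TKO also rose from 0 reads, to 3.24 and 3.28 CPM and by at least 59.8-fold, WT went from 0.0555, 0 and 0.212 to 1.26, 1.99 and 1.44, and the fitted difference was 5.26 ± 1.43 (adjusted p = 0.0392). The MT2C_Mm integrant chr6:98855707-98856636, 18696 bp from Foxp1, a forkhead factor gene, had 0.141 and 0.0376 CPM in TET TKO shEmpty and 10.5 and 9.24 in shKap1, and its log2 changes were 4.50 in WT, 3.12 in DNMT TKO and 6.68 ± 0.42 in TET TKO. Its TET TKO shKap1 libraries lay above the WT ones, at 2.57, 4.03 and 3.73, but the difference in response did not pass the test (2.18, adjusted p = 0.164).

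To ask whether the loss of DNA methylation or of TET enzymes changed the response, knockdown effects were compared between genotypes in the same fit. The TET TKO response was larger than that of WT in 215 members and smaller in 1, beside 0.831% and 0.242% of all integrants. The median difference was 1.82 with MT2_Mm (206 of 815 larger) and 1.72 without (9 of 257), beside 0.14 over all integrants. Other methods called fewer: limma-voom gave 67 larger responses, DESeq2 119 and a filter of 100 reads 98, each with 1 smaller. The DNMT TKO response was smaller in 41 members and larger in 3, beside 0.473% and 1.33% of all integrants, with median differences of -0.64 with and -0.54 without MT2_Mm, beside 0.10 over all integrants and a weaker loss of Trim28. This count was 15 without replicate 2 of DNMT TKO shEmpty in both directions together (44 with all libraries), 21 without replicate 3, 25 without the first WT shEmpty library and 96 without the first DNMT TKO shEmpty library, and limma-voom called 15, DESeq2 10, a filter of 100 reads 15 and a filter of 1 read 21. That for TET TKO was 133 without replicate 3 of WT shEmpty and 137 and 129 without either TET TKO shEmpty library.

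A large fitted difference for TET TKO was that of chr1:187445088-187451524, 152447 bp from Slc30a10. WT went from 0.111, 0.213 and 0.248 to 1.15, 1.17 and 1.81 CPM and DNMT TKO from 0.0508, 0.069 and 0.116 to 0.0961, 0.376 and 0.297, whereas TET TKO went from 0 reads in both libraries to 3.75 and 5.29 CPM, at least 82.1-fold higher. TET TKO was thus the lowest without and the highest with knockdown, and the fitted difference of its response from WT was 6.98 (adjusted p = 5.19e-06), a size that depends on the prior count. Another, chr15:24240550-24246462, rose from 0 to 4.03 and 1.75 CPM in TET TKO, at least 54.0-fold, and from 0, 0.249 and 0.106 to 1.42, 1.26 and 1.60 in WT. Its difference of 5.72 (adjusted p = 0.00469) was not called without any of 4 libraries, namely replicate 2 of WT shEmpty, either replicate of TET TKO shEmpty or replicate 1 of TET TKO shKap1, nor under 3 other settings (adjusted p 0.0555 to 0.285).

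The 1 member called with a smaller response was chr2:83705837-83712377, antisense inside Fam171b, which responded less in TET TKO than in WT. It had 0.111, 0.249 and 0.319 CPM in WT shEmpty and 4.30, 3.81 and 5.12 in shKap1, 0.102, 0.759 and 0.347 and then 2.64, 3.95 and 2.37 in DNMT TKO, but 0.352 and 0.488 and then 0.787 and 1.13 in TET TKO. The TET TKO shKap1 libraries lay below all other shKap1 libraries. The difference was -2.99 ± 0.55 (adjusted p = 2.97e-05). The integrant has no unique window inside in the reference, and where its reads lie was not examined.

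The response differed in the other direction for DNMT TKO at chr5:34246777-34249784, inside Whsc2, which codes for a subunit of the negative elongation factor NELF, in its orientation. WT went from 0.389, 0.285 and 0.531 to 1.52, 2.12 and 2.29 CPM, DNMT TKO from 0.355, 0.207 and 0.501 to 3.31, 8.13 and 4.52, and TET TKO from 0.493 and 0.526 to 11.9 and 13.3. The shEmpty groups overlapped and the shKap1 groups did not, with WT lowest. The response exceeded that of WT by 1.62 ± 0.42 in DNMT TKO (adjusted p = 0.0111) and by 2.33 ± 0.44 in TET TKO (6.15e-05), but the first was not called without any of 4 libraries (replicate 3 of WT shEmpty, 1 of WT shKap1, 2 of DNMT TKO shEmpty or shKap1) or under 4 other settings (adjusted p 0.0522 to 0.273). Whsc2 moved in the same order, from 76.6 ± 1.92 to 102 ± 5.70 CPM in WT (n = 3), from 84.3 ± 4.37 to 220 ± 63.4 in DNMT TKO (n = 3) and from 90.1 ± 2.797 to 360 ± 4.74 in TET TKO (n = 2). The opposite was seen at chr4:83012153-83018453, where DNMT TKO had 0.0508, 0.104 and 0.0386 CPM with shEmpty and 0.048, 0 and 0 with shKap1, while WT reached 1.42, 2.08 and 1.33 and TET TKO 2.55 and 3.39. Its DNMT TKO response differed from that of WT by -4.59 ± 1.21 (adjusted p = 0.0168), which was not called without replicate 2 of DNMT TKO shEmpty or replicate 2 or 3 of DNMT TKO shKap1, nor with a filter of 1 read (adjusted p 0.0533 to 0.341 over these cases).

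**Figure D4:**
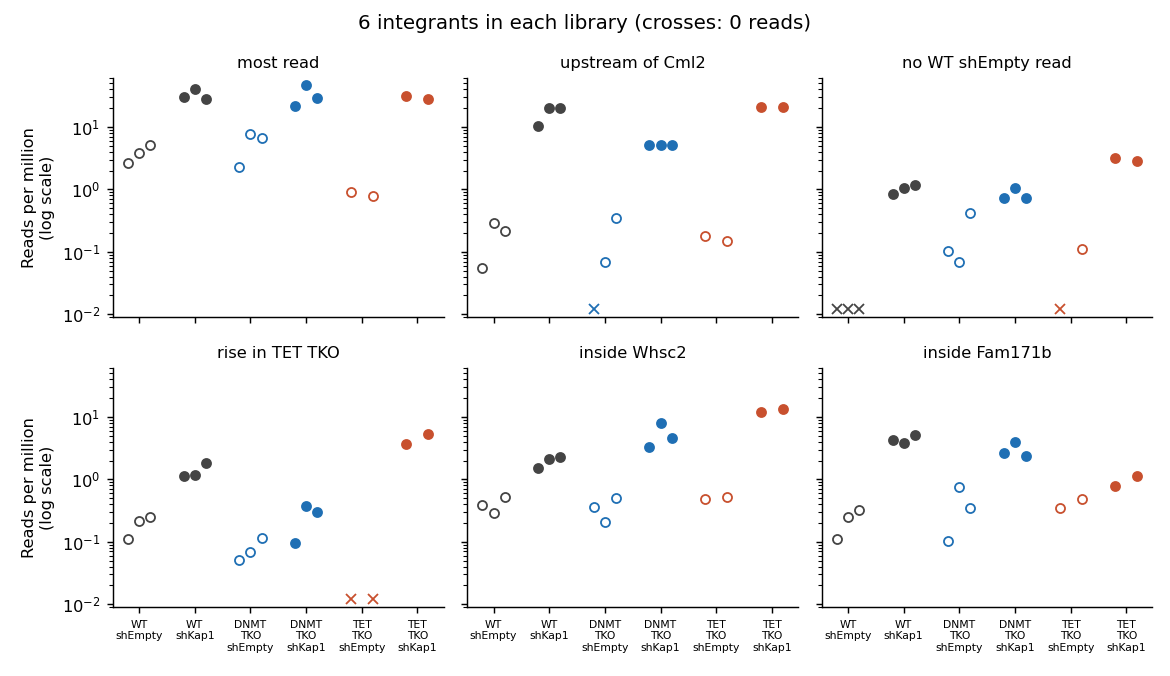
CPM (log scale) of 6 integrants in each of the 16 libraries (open, shEmpty; filled, shKap1; crosses at the base, 0 reads): chr13:65778368-65784792, chr6:85820939-85827385, chr16:14748808-14755244, chr1:187445088-187451524, chr5:34246777-34249784 and chr2:83705837-83712377, in reading order. TET TKO shKap1 libraries are the highest in the panels for chr16:14748808, chr1:187445088 and chr5:34246777 and the lowest shKap1 libraries in that for chr2:83705837.

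Without knockdown, few members differed between genotypes. In DNMT TKO 39 members were higher and 37 lower than in WT, beside 3.48% and 6.45% of all integrants, and in TET TKO 15 and 27, beside 1.74% and 2.33%. The median log2 difference was 0.01 and -0.21. The split rested on scaling and on libraries: with repeat reads for scaling it was 62 higher and 30 lower in DNMT TKO and 18 and 16 in TET TKO, and without the first DNMT TKO shEmpty library it was 80 and 25 in DNMT TKO. The TET TKO total of 42 was 26 and 25 without replicate 2 or 3 of WT shEmpty and 22 and 16 without replicate 1 or 2 of TET TKO shEmpty. By method, limma-voom called 27 in DNMT TKO and 10 in TET TKO, DESeq2 34 and 10, and a filter of 100 reads 44 and 25, and a filter of 1 read left 19 in TET TKO. The named differences were at low levels. At chr9:49890094-49896501 WT shEmpty had 0 reads and DNMT TKO shEmpty 0.0508, 0.380 and 0.231 CPM (5.51, adjusted p = 2.76e-05), and at chr8:110640973-110647370 WT had 0.222, 0.534 and 0.212 and DNMT TKO 0, 0.0345 and 0.0386 (-3.40, adjusted p = 5.95e-05). In TET TKO, chr19:44239755-44246150 had 0.106 and 0.188 CPM where WT had 0 reads (4.82, adjusted p = 0.00849, not called without replicate 2 or 3 of WT shEmpty or replicate 2 of TET TKO shEmpty), and chr13:6710718-6716031 had 0.0705 and 0.188 where WT had 0 (4.64, adjusted p = 0.0175, not called without any of the same libraries, nor under 3 other settings, with adjusted p 0.0649 to 0.332 over these cases). The lower ones in TET TKO were chr1:187445088-187451524 (-5.27 ± 1.25, adjusted p = 0.00238) and chr15:24240550-24246462 (-4.69, adjusted p = 0.0254), both with 0 reads in TET TKO shEmpty as given above. The first was not called without either TET TKO shEmpty library (adjusted p = 0.0865 and 0.0699), and the second without either of them or replicate 2 of WT shEmpty, nor under 5 other settings (adjusted p 0.0796 to 0.327 over these cases).

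The deposited chromatin regions were set against the members. Of 637 tested integrants with MT2_Mm at both ends, 14 (2.20%) overlapped a KAP1 region and 8 (1.26%) an H3K9me3 region, the mark of KAP1-bound heterochromatin, beside 46.6% and 37.4% of 11634 tested integrants of 5 kb or more. H3K4me3, the mark of active promoters, overlapped 3 and 4 of them in its 2 replicates, beside 21.8% and 23.8%. H3K27me3, the Polycomb mark, overlapped 80 (12.6%) and 67 (10.5%), beside 2.17% and 3.59%, and 24 (3.77%) in both replicates, beside 0.825%. Few reads can be placed uniquely in these integrants, and the part of that in the overlaps was not tested. Of the 34 members that overlapped a KAP1 region 31 rose in WT, with a median log2 change of 3.53 against 3.36 for the other 1038, a difference that was not tested. At the 38 KAP1 regions on these 34 members the median log2 ratio of 5-hydroxymethylcytosine reads to input went from -0.61 with shEmpty to 0.10 with shKap1 (median change 0.88) in WT cells, beside 0.02, 0.73 and 0.64 over 25992 KAP1 regions, with 1 library per hairpin and no test. With scaling to H3K4me3 regions the change at the 38 regions was 0.49, and the value over all KAP1 regions was not rescaled. At 37 H3K27me3 regions found in both replicates, on 39 members, the change was 0.26, beside 0.27 over 19072, and -0.13 with that scaling. At 20 H3K9me3 regions labelled as KAP1-dependent, on 21 members, it was 0.65, beside 0.66 over 14390, and 0.26 with that scaling. At 9 H3K4me3 regions on 7 members it was 0.56, beside 0.39 over 27830, and 0.18 with that scaling.

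Genes next to members were examined because MT2_Mm can start transcripts that run into a gene. Of 101 genes that start within 10 kb of a member with MT2_Mm, 35 rose in WT, 33 in DNMT TKO and 47 in TET TKO (34.7%, 32.7% and 46.5%), beside 10.8%, 10.1% and 8.05% of all 20321 genes. Of 230 whose body overlaps such a member, 67, 58 and 86 rose. Near members without MT2_Mm, 5, 5 and 4 of 45 rose within 10 kb, and 15, 13 and 12 of 72 with an overlap. From 10 to 100 kb the shares were 15.7%, 12.6% and 13.8% with and 15.7%, 13.6% and 12.1% without MT2_Mm, and beyond 100 kb they were 10.2%, 9.58% and 7.16% of 18532 genes. No test of these shares was made. A gene near members of both kinds is counted both with and without MT2_Mm, so these classes share genes. Where a member overlaps an exon on its strand its reads can count for the gene as well, and the shares were not recomputed without such members.

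**Figure D5:**
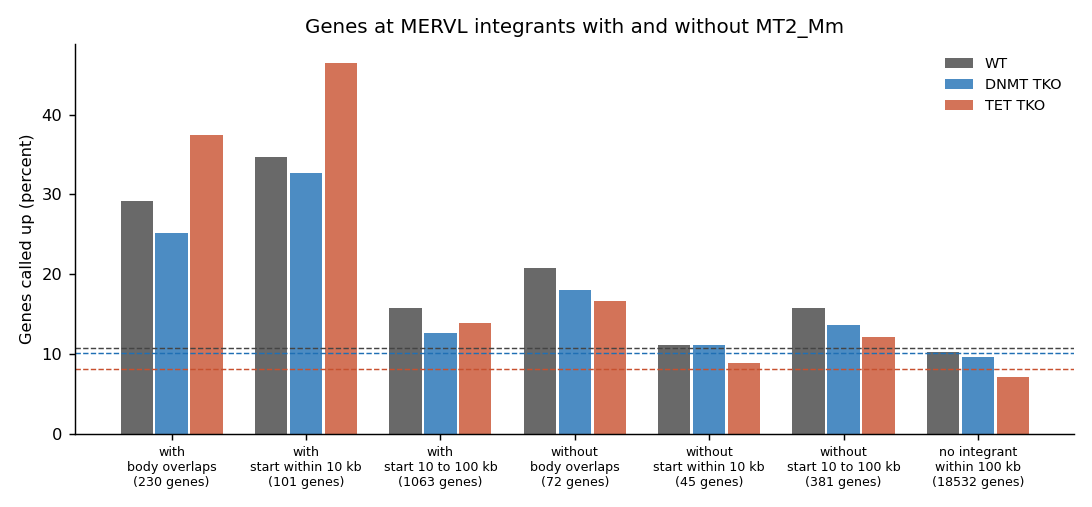
Percent of genes called up after knockdown in WT, DNMT TKO and TET TKO cells (bars, from 0) by their position to tested members with or without MT2_Mm; dashed lines give the percent of all 20321 genes (10.8, 10.1 and 8.05). Bars are highest for the 101 genes that start within 10 kb of a member with MT2_Mm, at 34.7, 32.7 and 46.5%. Genes near members of both kinds are counted in both classes.

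Cml2 had the largest rise among these genes in WT. It went from 0.889, 1.17 and 1.10 to 159, 257 and 262 CPM in WT (log2 change 7.71 ± 0.30, adjusted p = 8.27e-10), from 0.660, 1.31 and 2.35 to 117, 103 and 97.01 in DNMT TKO (6.14 ± 0.29) and from 1.23 and 1.69 to 342 and 320 in TET TKO (7.82 ± 0.35). As at the integrant 1787 bp upstream, the DNMT TKO shKap1 libraries were the lowest, although the difference of the DNMT TKO response from WT did not pass the test (-1.57, adjusted p = 0.0531). Ceacam19, of the CEACAM adhesion family, lies 9128 bp from the oppositely oriented chr7:20482442-20488795 and rose from 0.61 ± 0.20 to 50.6 ± 11.5 CPM in WT (n = 3), from 0.96 to 60.5 in DNMT TKO and from 0.44 to 74.1 in TET TKO, although its integrant had log2 changes of 2.86, 2.56 and 4.37.

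Slfn2, a Schlafen gene, was called up in WT and TET TKO (4.95 and 5.66) but not in DNMT TKO (2.69, adjusted p = 0.218). The difference of the DNMT TKO response from WT did not pass the test (-2.26 ± 6.37, adjusted p = 0.867). DNMT TKO shEmpty had 0 reads, so the size and error of this difference depend on the prior count. Its CPM were 0.222, 0.107 and 0.0354 and then 2.83, 3.77 and 3.94 in WT, 0 in DNMT TKO shEmpty and 0.048, 0.047 and 0 in shKap1, and 0.0353 and 0.188 and then 6.20 and 5.39 in TET TKO. The member 8334 bp upstream, chr11:82863885-82870280, had 3.54 ± 0.99 CPM in WT shKap1, 0.261 ± 0.021 in DNMT TKO shKap1 and 6.53 ± 0.06 in TET TKO shKap1. The other member next to the gene, chr11:82884504-82890936, reached 11.5 ± 3.14 CPM in DNMT TKO shKap1. Gm1527, 2512 bp downstream of chr3:28782613-28789027, went from 0.26 ± 0.05 to 2.42 ± 0.40 CPM in WT, from 0.013 ± 0.022 to 2.47 ± 0.62 in DNMT TKO and from 0.22 ± 0.06 to 7.13 ± 0.52 in TET TKO. Its response exceeded that of WT by 3.91 ± 0.80 in DNMT TKO (adjusted p = 0.00214), where the shEmpty level was lower, and by 1.85 ± 0.54 in TET TKO (0.0386). Gm13335 starts inside chr2:20348453-20354889 on the same strand and changed by 4.79, 5.66 and 6.68. Reads of the element at that start count for the gene as well, and their part was not tested.

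Genes of the 2-cell state, taken from a list of 39 of which 31 could be tested, moved with MERVL. In WT 27 rose and 1 fell (median log2 change 2.75), in DNMT TKO 22 rose and none fell (2.27), and in TET TKO 28 rose and 2 fell (4.51), beside 10.8%, 10.1% and 8.05% of all genes that rose and 6.54%, 2.41% and 4.46% that fell. The TET TKO response was larger than that of WT for 14, where it was larger for 2.08% and smaller for 2.13% of all genes. The DNMT TKO response was larger for 1 and smaller for 4 (median difference -0.30), where it was larger for 4.66% and smaller for 2.48% of all genes, beside the weaker loss of Trim28. Zfp352, a zinc finger gene of that state, went from 1.30 ± 0.32 to 9.91 ± 0.98 CPM in WT (n = 3), from 1.32 ± 0.79 to 9.32 ± 3.63 in DNMT TKO (n = 3) and from 0.75 ± 0.21 to 48.7 ± 0.067 in TET TKO (n = 2), with a difference of 3.11 ± 0.59 between TET TKO and WT (adjusted p = 0.00431). Tdpoz3 reached 20.4, 7.05 and 61.3 CPM with shKap1 in WT, DNMT TKO and TET TKO. Dub3, a deubiquitinase gene, rose from 5.43 to 42.4 CPM in WT and from 2.79 to 126 in TET TKO, while in DNMT TKO it had 3.54 ± 1.97 and 5.999 ± 1.40 CPM (log2 change 0.70, adjusted p = 0.14).

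Known activators of MERVL and Zscan4 were followed in a list of 9, of which 8 could be tested. The gene without a match was Duxf3, which codes for DUX, so the level of Dux is not given here. Of the 8 tested, 4 rose in WT and 6 in each of DNMT TKO and TET TKO, beside the same 10.8%, 10.1% and 8.05% of all genes, with median log2 changes of 1.75, 1.85 and 3.82. Zscan4c, Zscan4d, Zscan4f and Zfp352 are also in the list of genes of the 2-cell state, so these counts repeat part of that result. In WT the count equals the number of these shared genes, so it shows no rise outside that list. Dppa2, which acts upstream of Dux, went from 86.5 ± 17.98 to 131 ± 15.3 CPM in WT (log2 change 0.59, under the 2-fold limit) and changed by 1.20 in DNMT TKO and 1.57 in TET TKO, whereas its partner Dppa4 had changes of -0.06, -0.11 and 0.17. In a list of 30 known repressors of MERVL, 1 rose in WT, and the 1 that fell in each genotype was Trim28, the target of the hairpin, beside 10.8% of all genes that rose in WT and 6.54%, 2.41% and 4.46% that fell.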

How the data were processed

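RNA-seq libraries of mouse ESCs in 6 groups (16 libraries) were made, per the labels, with a stranded mRNA kit. The deposited counts per gene and per repeat are raw read counts: the authors kept uniquely aligned reads, counted genes with featureCounts at a mapping quality of 10 and counted repeats by strand with bedtools multicov over an mm9 RepeatMasker track in which LTRs and internal parts within 400 bp were joined. The submitters' processing notes name HISAT2 2.0.1, featureCounts 1.5.1 and bedtools 2.25. The deposited peak files give a score per region, of which only the positions were used here, and the deposited 5-hydroxymethylcytosine (hMeDIP) counts per region were used for replicate 1 alone, because labels and files of replicate 2 conflict. Groups were taken from the labels.

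Members and gene lists were chosen with earlier results of these data known. Integrants with at least 16 reads in all were tested together (123880) with edgeR 4.0.16 in R 4.3.3, by the quasi-likelihood F test in 1 fit over 6 groups, with gene library sizes and TMM factors; genes (20321) were fitted likewise. P-values were adjusted by the Benjamini-Hochberg method over the whole table, and the error of a log2 change is a standard error. Library depth was 18108431 to 29373696 gene reads. Named integrants were the 5 most read, and, among called members with at least 200 reads, those with the largest changes for each contrast, by LTR class for knockdowns; 1 of these is not reported here. Alternatives used DESeq2 1.42.0, limma 3.58.1 (voom), other filters and scaling, and left out each library. Scripts were tested on simulated data. Replicates came from independent experiments per the study's methods, each genotype being 1 line.

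Replicate numbers did not pair the integrant data (correlations of deviations of same-numbered libraries at most 0.081 over all integrants). Over genes they did pair shEmpty with shKap1 in WT (0.274, 0.118 and 0.121) and in DNMT TKO (0.33, 0.174 and 0.078). They also paired, over genes, the shEmpty libraries of WT and DNMT TKO (0.317, 0.135 and 0.148), and less so the shKap1 libraries of these (0.143, 0.066 and 0.024). Over the members, the first libraries reached 0.248 (WT and DNMT TKO shEmpty) and 0.174 (DNMT TKO), and every other value was at most 0.09. Sequences, unique windows and motifs were read from the mm9 reference (28 members lie on sequences not used here), and genes from its annotation. A unique window is a stretch of 100 bases found at a single place in that reference. The list genes Duxf3, Zscan4a, Tcstv1, Tcstv3, Pramef25, Gm2022 and AF067061 had no match by symbol.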

Additional observations from a re-analysis of the deposited data

Results flagged for a closer look

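These results are listed because the response to knockdown differed between a knockout and WT in the test of that difference, as log2 differences from edgeR. For DNMT TKO the response was lower at chr16:14748808-14755244 (-5.57), chr2:89725271-89726297 (-2.37) and chr4:83012153-83018453 (-4.59). It was higher at chr5:34246777-34249784 (1.62) and Gm1527 (3.91). The value for Trim28 itself was 1.28, the weaker knockdown.

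For TET TKO the response was higher at chr16:3468160-3474571 (1.80), chr7:11755295-11761733 (2.08), chr3:31550036-31556502 (2.33), chr1:187445088-187451524 (6.98), chr15:76795409-76801804 (5.26) and chr3:106389815-106392100 (5.02). It was also higher at chr5:34246777-34249784 (2.33), chr4:83012153-83018453 (2.90) and chr15:24240550-24246462 (5.72), and lower at chr2:83705837-83712377 (-2.99). Among genes it was higher at Gm1527 (1.85), Zscan4d (2.78), Whsc2 (1.59) and Zfp352 (3.11). Differences at integrants with a group at 0 reads depend on the prior count of the fit.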

How the results depend on the processing

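Of 583 alternative values for the sums and counts, 547 stayed within the tolerance set for them (counts within 1.5 times, sums within the spread between replicates) and 0 reversed. Of 1772 for named integrants and genes, 1732 kept their direction and side of the threshold, and 40 lost their call. With a filter of 100 reads, 112 (WT), 107 (DNMT TKO) and 113 (TET TKO) members without MT2_Mm rose, of 120 tested. DESeq2 called 98 of 229 in DNMT TKO. For the difference of the TET TKO response from WT (216 called), that filter gave 99, limma-voom 68 and DESeq2 120, and for that of DNMT TKO (44) they gave 15, 15 and 10, with 21 at a filter of 1 read. Without knockdown, DNMT TKO (76) gave 44, 27 and 34, and TET TKO (42) gave 25, 10 and 10, with 19 at a filter of 1 read; the cause was not tested. With no fold threshold 156 nearest genes rose in WT and 137 in DNMT TKO. Repeat-count scaling put the summed TET TKO log2 change at 4.88 for all members, 4.98 with and 3.96 without MT2_Mm. With gene scaling, leaving out members that overlap an exon put that without MT2_Mm at 4.43. Leaving out 1 library gave 15 to 96 for the DNMT TKO response difference, 129 to 240 for that of TET TKO, 16 to 48 for TET TKO without knockdown, and 4.19 to 4.21 for the summed TET TKO change without MT2_Mm.

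With the replicate number as a block, 901, 824 and 1006 members rose in WT, DNMT TKO and TET TKO, 46 and 235 responses differed from WT, and none of the counts and single results refitted with it changed its call. Each genotype was 1 line and integrants of cells labelled 129S4/SvJae were counted on a C57BL/6J reference.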
